A study of Mus musculus with 4 samples.

Results

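Olfactory receptor genes were examined in copy number profiles of 4 mouse liver tumours, each from a separate mouse. The members were the array probes whose gene name in the array design begins with Olfr and that lie on chromosomes 1 to 5, 7, 10, 11, 14, 16 or 17. This gave 44 probes for 37 receptors, out of 56 such probes for 47 names on the whole array and out of 20795 named genes. The members lay on 8 of those chromosomes, with 16 receptors on chromosome 7, 9 on chromosome 2, 4 on chromosome 14, 3 on chromosome 11, 2 on chromosome 4 and 1 each on chromosomes 10, 16 and 17. Of the 37 names, 36 are current symbols in a RefSeq table, which lists 35 of them as protein coding and Olfr75-ps1 as a transcribed pseudogene. That table holds 1078 Olfr symbols on the chromosomes of the rule, so that 3.34% of them had a member here.

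The tumours arose in C57BL/6J mice that had lost Trp53, the gene of the p53 tumour suppressor, specifically in the liver, and the mice were not treated. Tumour DNA carried the red dye Cy5 and was hybridised on Agilent arrays against DNA in the green dye Cy3, pooled from the spleens of 3 littermates of the same sex. Both DNAs are labelled Trp53-/- and male, the animals' age is not among the labels, and the labelling protocol names liver and not spleen as the reference tissue. All values are log2 ratios of tumour over reference DNA, centred on the autosomal probes, so that 0 is the reference level, and whether 1 pool served all 4 arrays is not stated.

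Olfactory receptors are G protein-coupled receptors of sensory neurons in the nose, where each neuron chooses 1 receptor gene and one of its alleles to express. They form the largest gene family of the mouse, arranged in tandem clusters that arose by duplication, and copy number in these clusters varies between inbred strains. The class I receptors, which also occur in fish, sit together in a single cluster around the beta-globin genes on chromosome 7, while class II receptors are spread over many chromosomes. The arrays measured DNA and say nothing about expression.

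The probes are shown for low and high receptors described below, chosen with their values in view, for Olfr558 with a known role and for Olfr1164 with the widest spread. Positions are on mm9, from the array design. Letters are those of the array design, 5′ to 3′, and their strand in the genome was not determined. Capitals mark the longest unbroken run of A and T in each probe.
Olfr67, chr7:110937042-110937101: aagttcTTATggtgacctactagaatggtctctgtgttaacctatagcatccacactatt
Olfr65, chr7:111054349-111054408: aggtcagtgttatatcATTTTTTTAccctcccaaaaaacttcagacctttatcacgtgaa
Olfr658, chr7:111791449-111791508: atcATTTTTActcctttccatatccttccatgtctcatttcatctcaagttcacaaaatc
Olfr741, chr14:51097469-51097528: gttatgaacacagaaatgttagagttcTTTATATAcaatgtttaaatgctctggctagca
Olfr746, chr14:51273810-51273869: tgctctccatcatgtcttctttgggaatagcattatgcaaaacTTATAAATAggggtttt
Olfr615, chr7:110708982-110709040: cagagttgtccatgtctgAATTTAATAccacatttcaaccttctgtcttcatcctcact
Olfr623, chr7:110808782-110808841: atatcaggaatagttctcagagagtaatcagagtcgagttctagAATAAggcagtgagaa
Olfr78, chr7:109896735-109896794: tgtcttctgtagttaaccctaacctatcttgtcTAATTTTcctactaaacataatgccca
Olfr1355, chr10:78338721-78338776: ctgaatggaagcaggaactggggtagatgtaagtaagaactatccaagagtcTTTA
Olfr558, chr7:109851492-109851551: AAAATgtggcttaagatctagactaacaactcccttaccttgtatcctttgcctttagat
Olfr1164, chr2:87933081-87933140: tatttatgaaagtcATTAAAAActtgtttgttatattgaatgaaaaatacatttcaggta
The first 5 of these probes read low, and the next 4 read high. The receptor probes were poor in G and C, with a median of 36.7% and a range of 20% to 41.1%, which is also the median of the other named probes on these chromosomes (36.7%). Their longest A and T run had a median length of 7 bases, from 4 to 13, against 6 bases in the other named probes. The low and the high probes overlapped in base content, with 31.7% to 38.3% G and C in the low ones and 35% to 41.1% in the high ones. A run of 16 bases was shared with some other probe of the array, on either strand, by 20 of the 44 receptor probes, and with a probe of another receptor by 0.

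All 44 receptor probes were well above background in the tumour channel of all 4 arrays, and 0 were saturated. The median raw signal above background ranged over the arrays between 522.2 and 1286 in the tumour channel and between 164.6 (tumour 3) and 658.2 in the reference channel. Adjacent autosomal probes differed with a noise SD of 0.27, 0.33, 0.18 and 0.20 (tumours 1 to 4), so a single receptor probe was least precise in tumour 2. Tumours 1 and 4 were on 1 slide and the other two on a slide each. A pair of probes named Trp53 averaged 0.52, 0.32, -0.16 and 0.29 in tumours 1 to 4; whether they lie in the deleted part of the gene is not given, so they do not check the genotype. The X chromosome stood at 0.82 in tumour 1 although both DNAs are labelled male, and no receptor of the rule lies on it. A ratio of bulk DNA does not tell a change in few cells from a smaller change in all of them.

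In the processed ratios no receptor was high or low in all 4 tumours. The question was whether any receptor differed from the reference in the same way in every tumour, as an inherited copy difference from the pooled littermates would. At a log2 ratio of 0.2 or above in each tumour there were 0 of 37 receptors, against 0.401% of the 19957 other named autosomal genes. At -0.2 or below there were also 0 of 37, against 1.59% of those genes. Since 35 of the 37 receptors were measured by 1 probe, the closer background is the 7580 other autosomal genes with 1 probe, of which 0.963% were high and 2.8% low. With 37 receptors, shares of that size correspond to about a single gene or less, so the 0 is near the background. With normexp background correction 2 receptors were high (Olfr547 and Olfr1355) and 4 low (Olfr67, Olfr59, Olfr741 and Olfr1164), against 5.87% and 9.05% of the genes with 1 probe. Without tumour 3, the remaining tumours were all low at 5 receptors (Olfr65, Olfr658, Olfr741, Olfr1006 and Olfr1033), against 9.09% of those genes. Without tumour 4 they were low at Olfr67, against 3.93%, and high at Olfr623, against 1.83%.

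Limma's moderated test of the mean against 0, adjusted over all 20795 named genes, called 0 of 37 receptors at an adjusted p of 0.05, against 0.144% of all named genes, or 30 genes, every one of them lower in the tumours. At an unadjusted p under 0.05 there were 12 receptors, 5 higher and 7 lower, against 10.3% higher and 14.8% lower among all named genes. Together that is 32.4% of the receptors, against 25.1% of all genes and 33.1% of the 7916 genes with 1 probe, so the share was close to that of genes measured alike. The lowest adjusted p of a receptor was 0.106, for Olfr67. The 95% intervals of the receptors' means over the tumours ran from -0.80 to 0.50 at their outer bounds. All 37 therefore lay above -1, the ratio of 1 lost copy of a pair, and below 0.58, that of 1 gained copy, for a mean over 4 tumours of pure tumour cells. With normexp background correction of the raw signals in place of the processed ratios, 8 receptors passed, against 10.8% of all genes (4.06% higher and 6.72% lower). The share among genes with 1 probe is not given for this setting. Of the 8, Olfr547 and Olfr1355 were higher, and Olfr67, Olfr65, Olfr59, Olfr741, Olfr1164 and Olfr1080 were lower. Olfr1080 then averaged -0.28, against 0.07 from the processed ratios, so its sign depends on the correction. Its signal was weak, at 269, 305, 355 and 293 in the tumour channel of tumours 1 to 4. Normexp used an offset of 50, which changes weak signals the most. The raw channels it was applied to were unequal, with medians of 522.2 (tumour) and 164.6 (reference) in tumour 3. The part that the offset has in the low values under normexp was not tested. With GC correction added to normexp, Olfr1080 averaged 0.06 and Olfr1164 0.02, and neither passed. Without tumour 3, Olfr65 passed at a mean of -0.43 (limma, adjusted p = 0.048), against 1.86% of all genes.

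**Figure D1:**
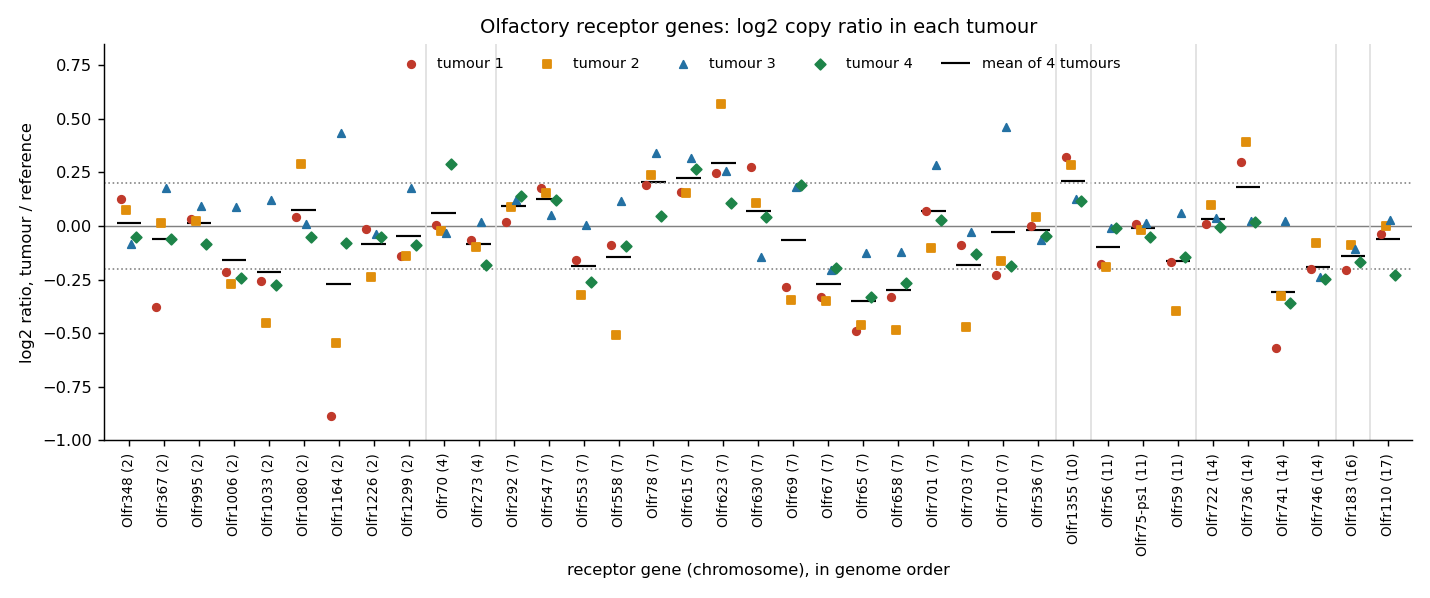
Log2 ratio of tumour over reference DNA for each of the 37 receptors, in genome order with the chromosome in brackets; points are the 4 tumours, bars their mean, and dotted lines mark 0.2 and -0.2. No receptor has all 4 tumours beyond the same dotted line, and Olfr1164 has the widest spread, from -0.89 to 0.43.

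The receptors nearest to a shared low value were Olfr67, Olfr65 and Olfr658, all class I receptors of chromosome 7. These and the receptors that follow were chosen for description after their values were seen. Olfr67 stood at -0.33, -0.35, -0.21 and -0.195 in tumours 1 to 4, so that tumour 4 missed the threshold of -0.2 by a little. Its mean was -0.27 ± 0.05 (limma SE, n = 4; adjusted p = 0.106). Olfr65 was at -0.49, -0.46, -0.13 and -0.33, with a mean of -0.35 ± 0.07 (adjusted p = 0.111), the lowest mean of all members. Olfr658 was at -0.33, -0.48, -0.12 and -0.26, with a mean of -0.30 ± 0.07 (adjusted p = 0.116). In Olfr65 and Olfr658 tumour 3 was the one nearest to 0, and in all 3 receptors tumours 1 and 2 were lowest.

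The probes around these receptors did not lie as low on average. These receptors were picked for low values of single probes, so a mean over many neighbours would be less extreme in any case. The contrast therefore does not show that the low values are confined to the receptors. Within 100 kb of each receptor the other probes averaged -0.08 at Olfr67, -0.07 at Olfr65 and -0.04 at Olfr658 over the tumours. Olfr67 and Olfr65 lie 117 kb apart on either side of the beta-globin genes, which code for the beta chains of haemoglobin. Between them the probe named Hbb-y, an embryonic globin, read -0.27, -0.21, 0.04 and -0.20, and the probe named Hbb-bh1, another embryonic globin, read 0.15, -0.05, 0.10 and -0.04. These globin probes were picked by name, and other probes between the receptors were mixed. A probe before Hbb-bh1 read 0.15, 0.10, 0.08 and 0.09, and a probe after Hbb-y read -0.51, -0.73, 0.19 and -0.19. Single probes are too noisy to tell whether a low run joins the receptors, and this was not tested.

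The receptors nearest to a shared high value were Olfr615 and Olfr623, also of class I, and Olfr1355 on chromosome 10. Olfr615 stood at 0.16, 0.16, 0.32 and 0.27 in tumours 1 to 4 (mean 0.23 ± 0.05, adjusted p = 0.113). Olfr623, 99.8 kb further on, stood at 0.25, 0.57, 0.26 and 0.11 (mean 0.30 ± 0.08, adjusted p = 0.136), the highest mean of all members. Over the tumours the probes within 100 kb averaged -0.15 around Olfr615 and -0.13 around Olfr623. As these receptors were picked for high values of single probes, a mean over their neighbours would lie lower in any case. These neighbours were below 0 in tumours 1, 2 and 4, but stood at 0.06 and 0.04 in tumour 3, on the receptors' side. Olfr1355 stood at 0.32, 0.28, 0.13 and 0.12 (mean 0.21 ± 0.05, adjusted p = 0.129), with its neighbours at 0.0054. At a threshold of 0.1 these 3 receptors were high and Olfr67, Olfr65 and Olfr658 low in all 4 tumours, against 2.33% high and 5.42% low among all other autosomal genes and 4.68% high and 7.65% low among those with 1 probe.

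Class II receptors with a low mean included Olfr741 and Olfr746, neighbours on chromosome 14. Olfr741 was at -0.57, -0.33, 0.03 and -0.36 (mean -0.31 ± 0.10, adjusted p = 0.156), so tumour 3 stood at the reference level and the other tumours below it. Under normexp it read -0.59, -0.36, -0.35 and -0.44, low in tumour 3 as well. Olfr746, 176 kb further on, was at -0.20, -0.08, -0.24 and -0.25 (mean -0.19 ± 0.05, adjusted p = 0.124), with tumour 2 the closest to 0. Olfr736, 84.3 kb before Olfr741, was at 0.30, 0.39, 0.02 and 0.02, so adjacent receptors of this cluster lay on opposite sides of 0 in tumours 1 and 2. On chromosome 16, Olfr183 was below 0 in each tumour, at -0.20, -0.09, -0.11 and -0.17 (mean -0.14 ± 0.04, adjusted p = 0.147).

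Of 12 receptors listed for a known ligand or role, 2 were measured, and both belong to class I. Olfr78, which responds to short-chain fatty acids and is expressed in glomus cells of the carotid body and in the kidney, stood at 0.19, 0.24, 0.34 and 0.05 in tumours 1 to 4. It was above 0 in each tumour, with a mean of 0.20 ± 0.06 (unadjusted p = 0.015, adjusted p = 0.143). Olfr558, whose human counterpart OR51E1 responds to fatty acids such as butyrate, stood at -0.09, -0.51, 0.12 and -0.09 (mean -0.14 ± 0.10, adjusted p = 0.399). Tumours 1 and 4 were close to 0, and tumour 2 alone was far below it. The 2 genes lie 45.2 kb apart, and the probes around them averaged 0.02 for Olfr78 and 0.01 for Olfr558.

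Olfr56 and Olfr75-ps1 were the only receptors with more than 1 probe. Each of the 7 probes of Olfr56 was below the reference in tumours 1 and 2, while their mean was near the reference in tumours 3 and 4. The mean of Olfr75-ps1 stayed near the reference. The 7 probes of Olfr56 span chr11:48884235-48934241 and averaged -0.18 ± 0.07 in tumour 1 and -0.19 ± 0.03 in tumour 2, with -0.01 ± 0.07 in tumour 3 and -0.01 ± 0.04 in tumour 4 (SE over probes). Their mean over the tumours was -0.10 ± 0.05 (limma SE, adjusted p = 0.292). The 2 probes of the pseudogene Olfr75-ps1 averaged 0.01, -0.02, 0.02 and -0.05 (mean -0.01 ± 0.04, adjusted p = 0.888). These means combine probes of opposite sign, at -0.19, -0.12, 0.02 and -0.19 for one and 0.21, 0.09, 0.0080 and 0.09 for the other. Over all members, the median range between the 4 tumours was 0.32.

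Olfr1164 had the widest range between the tumours of all members. This receptor on chromosome 2 was at -0.89, -0.55, 0.43 and -0.08, a range of 1.32, and its mean of -0.27 ± 0.21 did not pass the test (adjusted p = 0.44). Its probe, printed above, has only 20% G and C. The signal was weak, at 117, 110, 275 and 187 in the tumour channel and 221, 161, 206 and 196 in the reference channel. The median receptor probe read 926, 997, 1086 and 990 in the tumour channel. It was spotted 5 times per array, and the repeats had an SD of 0.08, 0.28, 0.28 and 0.17, below the differences between arrays. This SD does not measure an error shared by all spots of the probe on an array. With normexp background correction, however, it read -0.39, -0.39, -0.46 and -0.33, so that tumour 3 changed sign and the spread between tumours mostly went. The part that the normexp offset has in these values of a weak probe was not tested. After correction for probe GC content the same probe read -0.36, -0.17, 0.35 and 0.12, with a mean of -0.02. With normexp and GC correction together it read 0.15, 0.02, -0.12 and 0.03, with a mean of 0.02. Other named autosomal probes with under 35% averaged -0.17, -0.14, 0.0029 and -0.09, the lowest values again in tumours 1 and 2.

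The class I cluster was the largest group of members. It runs over 2108 kb at chr7:109683833-111791508 and holds 11 receptors with 1 probe each, in the order Olfr547, Olfr553, Olfr558, Olfr78, Olfr615, Olfr623, Olfr630, Olfr69, Olfr67, Olfr65 and Olfr658. Its receptor probes averaged -0.06 ± 0.08, -0.11 ± 0.11, 0.06 ± 0.06 and -0.03 ± 0.06 in tumours 1 to 4 (SE over probes). The mean over the tumours was -0.04 ± 0.07 (SD, n = 4), and limma gave an unadjusted p of 0.317 and an adjusted p of 0.639, over 2390 receptor clusters and 1 Mb bins of which 0.0418% were called. The 181 other probes between the first and the last receptor averaged -0.11 ± 0.02, -0.12 ± 0.03, 0.03 ± 0.01 and -0.06 ± 0.02, so receptors and the DNA between them lay together in each tumour. The mean of the cluster stayed within 0.2 of the reference in each tumour.

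Within the cluster the receptors did scatter in both directions. Of its 11 receptors, 4 were higher and 4 lower at an unadjusted p under 0.05, while among the 26 receptors elsewhere 4 were. The share over all named genes was 25.1%, and 33.1% over those with 1 probe, and the difference between class I and other receptors was not tested. The higher ones were Olfr547 (0.18, 0.15, 0.05 and 0.12), Olfr78, Olfr615 and Olfr623. The lower ones were Olfr553 (-0.16, -0.32, 0.0027 and -0.26), Olfr67, Olfr65 and Olfr658. Higher and lower receptors alternate at the start of the cluster, where Olfr547 and Olfr553 lie 79.0 kb apart, and 0 of the 8 passed the adjusted test.

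One probe that carries no receptor name stood out inside the cluster, and it is shown because it was the only one of the 181 at -0.2 or below in all 4 tumours (0.552%, against 2.64% of the autosomal probes away from receptors).
Probe between Olfr65 and Olfr658, chr7:111209331-111209390: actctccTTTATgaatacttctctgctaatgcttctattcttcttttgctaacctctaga
It read -1.29, -1.84, -1.42 and -1.54 in tumours 1 to 4, with both channels well above background on all 4 arrays, and lies 582 kb before the end of the cluster. Its name in the array design is AK015805, which the adjacent probes also carry. The adjacent probes, 8.94 kb before it and 11 kb after it, averaged -0.01 and -0.19, so the low value rests on 1 probe. At -1 or below in all 4 tumours there were 0.0684% of the 160797 autosomal probes away from receptors. Under normexp this probe read -0.79, -0.94, -0.98 and -0.73, low in every tumour but not at -1 or below in any. Another 3 of the 181 probes were at 0.2 or above in all 4 tumours, or 1.66%, against 0.983% of the probes away from receptors. Whether any of these probes overlaps a receptor gene was not determined.

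**Figure D2:**
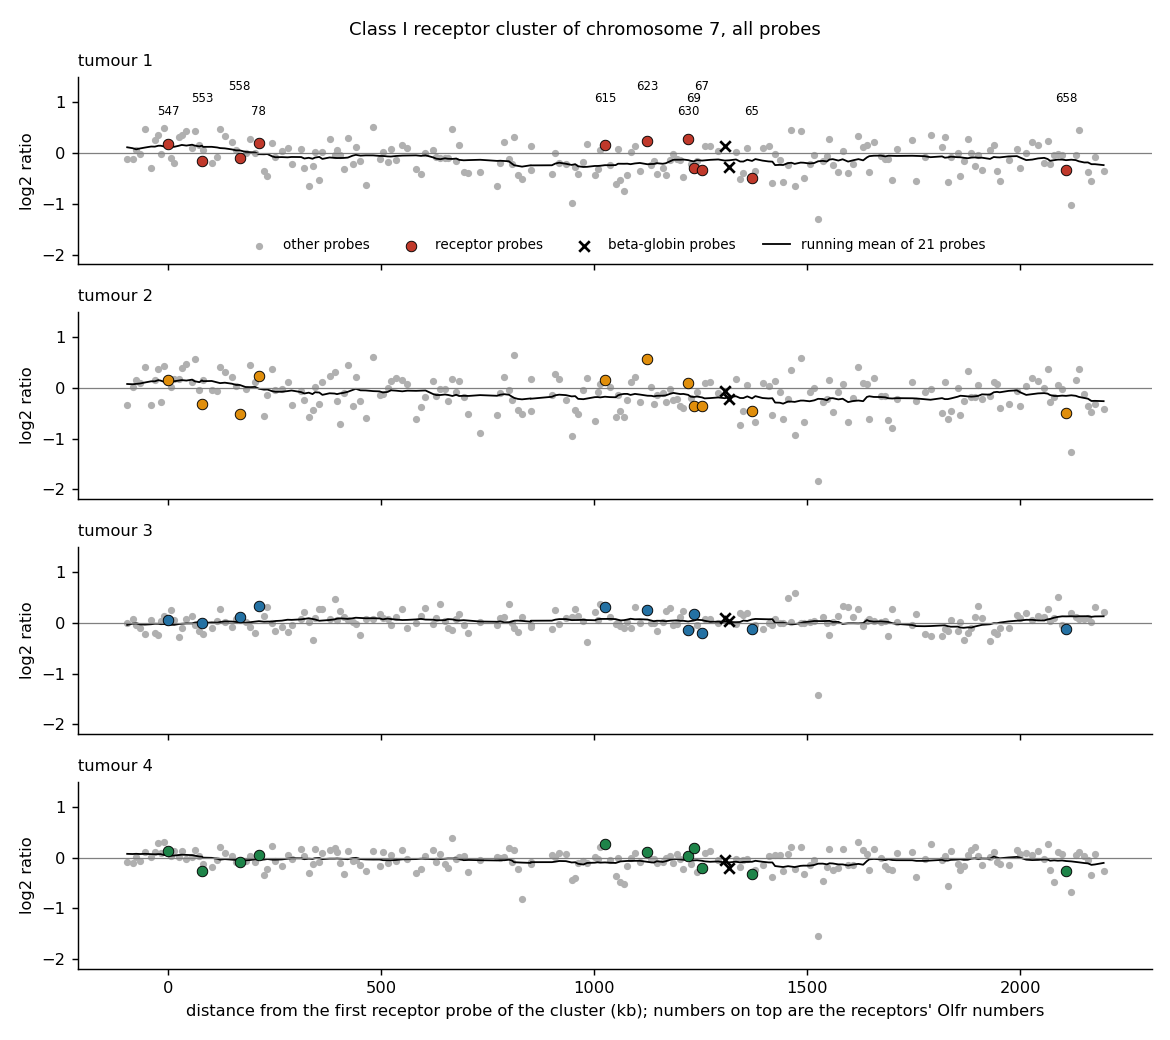
Log2 ratio of every probe across the class I cluster and 100 kb on each side, by distance from the first receptor probe in kb, in 1 panel per tumour; large circles are receptor probes with their Olfr numbers above, crosses beta-globin probes, and the line a running mean of 21 probes. The line moves far less than the single probes, receptor probes fall on both sides of it, and 1 grey probe lies at -1.29 to -1.84 in all 4 panels.

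The other stretches with more than 1 receptor, joined where consecutive receptor probes were under 1 Mb apart, had too few receptor probes for the test of clusters, which needed 5. Besides the class I cluster only Olfr56 reached that number, with an unadjusted p of 0.055 (adjusted p = 0.324). The 4 receptors at 85.28 to 86.40 Mb of chromosome 2 averaged -0.10, -0.10, 0.08 and -0.16 in tumours 1 to 4, and the 94 probes between them -0.18, -0.15, 0.06 and -0.05. The 4 receptors at 50.52 to 51.27 Mb of chromosome 14 averaged -0.12, 0.02, -0.04 and -0.15, and the 60 probes between them -0.13, -0.13, 0.06 and -0.09. The 3 receptors at 113.96 to 114.09 Mb of chromosome 7 averaged -0.08, -0.24, 0.24 and -0.10, with an SE over probes of 0.09, 0.11, 0.14 and 0.07, and the 10 probes between them -0.02, -0.01, -0.02 and -0.02. Tumour 3 was the highest of the 4 for the receptors and the probes between them on chromosome 2, for the probes between them only on chromosome 14, and for the 3 receptors only on chromosome 7.

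Receptor probes were then set against other named probes of the same chromosome and a like GC content, in bins of 5 percentage points with at least 10 such probes, which 42 of the 44 had. Receptor probes minus matched probes averaged -0.09 ± 0.03, -0.06 ± 0.04, 0.07 ± 0.02 and -0.03 ± 0.02 in tumours 1 to 4 (SE over probes). The mean over the tumours was -0.03 ± 0.07 (SD, n = 4), smaller than the spread between tumours, and tumour 3 had the opposite sign to the other tumours. No test was made of this difference. Without the GC matching, within the chromosome alone, the differences were -0.12, -0.07, 0.07 and -0.04. After correction of each array for GC they were -0.07, -0.05, 0.06 and -0.03, so the sign in each tumour stayed the same. Under normexp the mean over the tumours was -0.05, without tumour 3 it was -0.06, and without tumour 1 it was -0.01.

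A like offset was found in the DNA around the receptors. The 478 other probes within 100 kb of a receptor differed from their own matched probes by -0.08 ± 0.01, -0.05 ± 0.01, 0.07 ± 0.01 and -0.02 ± 0.01. The matched probes are named ones, while only 101 of the 479 other probes within 100 kb carry a gene name. The part this has in the difference was not tested. Receptor by receptor, the value minus that of its 10 to 20 neighbouring probes averaged 0.00052 ± 0.04, 0.0020 ± 0.05, 0.0090 ± 0.03 and -0.02 ± 0.03 (SE over 37 receptors), below its SE in each tumour. The neighbours averaged below 0 around 30, 31, 5 and 31 of the 37 receptors, tumours 1 to 4 in order. Receptors that lie close together share neighbours, and the same count around other genes is not given. The correlation of the ratio with probe GC over all probes was 0.22, 0.13, -0.05 and 0.13, with the opposite sign in tumour 3 as well. The part that base content beyond the probe itself has in this offset was not tested.

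**Figure D3:**
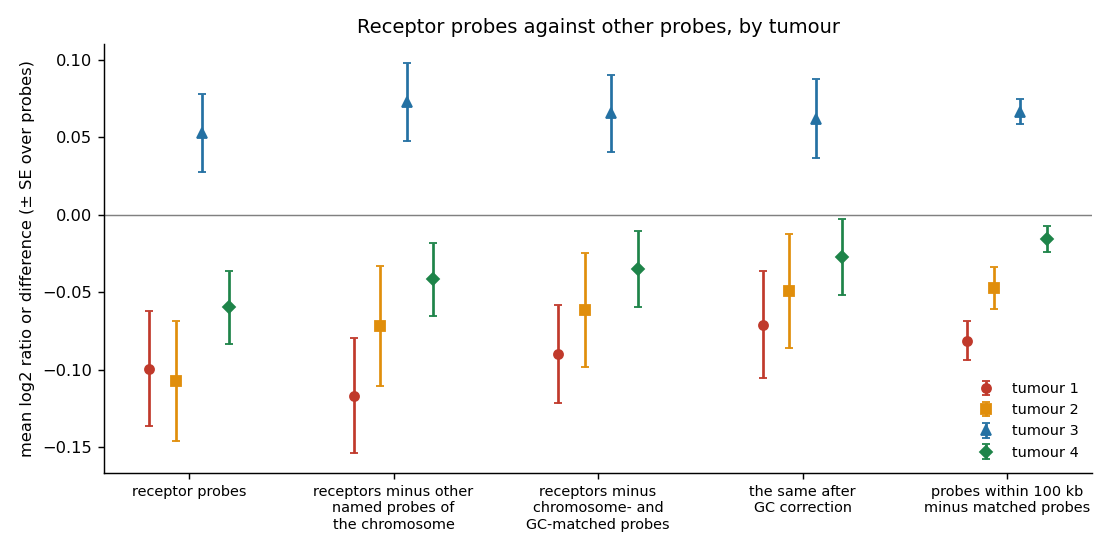
Mean log2 ratio of receptor probes, their difference from other named probes of the chromosome, from chromosome- and GC-matched probes before and after GC correction, and the difference of the probes within 100 kb of a receptor from matched probes; error bars are the SE over probes. Tumour 3 lies above 0 and the other tumours below 0 in all 5 columns, and the surrounding probes show offsets of -0.08, -0.05, 0.07 and -0.02.

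The DNA around single receptors was near the reference at most of them. The neighbours' mean ran from -0.29 to 0.29 in tumour 1 and from -0.32 to 0.18 in tumour 2. It ran from -0.04 to 0.16 in tumour 3 and from -0.16 to 0.14 in tumour 4. It was at -0.2 or below around 6 receptors in tumour 1 (Olfr615, Olfr623, Olfr722, Olfr1033, Olfr1080 and Olfr1164) and around 5 in tumour 2 (Olfr536, Olfr615, Olfr623, Olfr722 and Olfr1080), and at 0.2 or above around Olfr59 in tumour 1. Of the 11 receptors at -0.2 or below in tumour 1, only Olfr1033 and Olfr1164 had neighbours that were also at -0.2 or below on average. In tumours 2, 3 and 4, with 13, 2 and 8 low receptors, 0 had. Of the 4, 5, 6 and 2 receptors at 0.2 or above in tumours 1 to 4, 0 had neighbours at 0.2 or above. These counts were largely set beforehand, since a neighbour mean over 10 to 20 probes varies less than 1 probe and seldom passed 0.2. They do not tell whether a neighbourhood shared a smaller change.

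**Figure D4:**
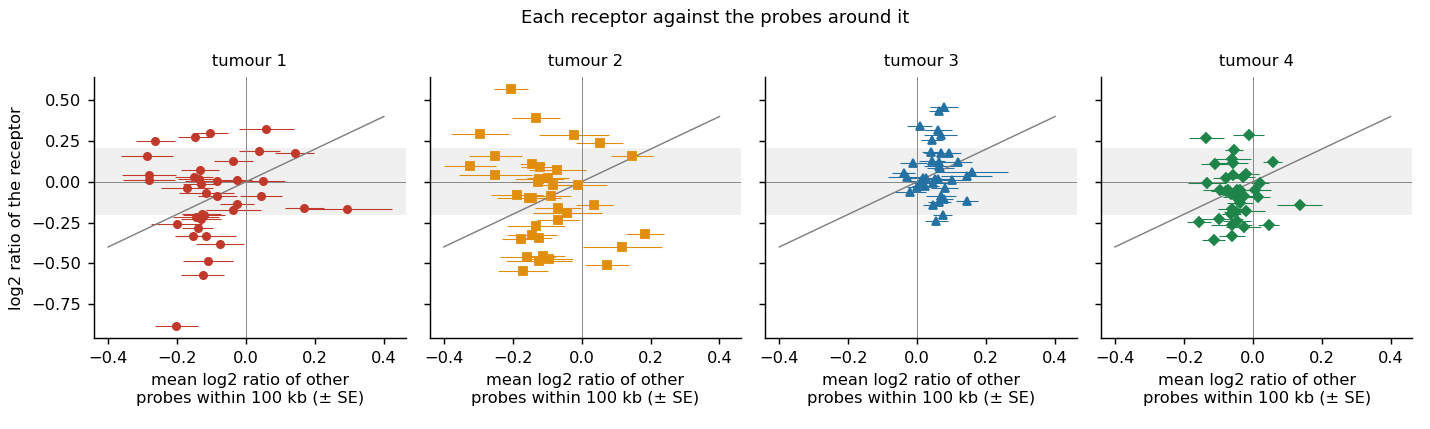
Each receptor's log2 ratio against the mean of the other probes within 100 kb, in 1 panel per tumour; horizontal bars are the SE over those probes, the grey line marks equal values, and the shaded band runs from -0.2 to 0.2. Receptors spread further up and down than their neighbours do left and right, and in tumour 3 all neighbour means lie between -0.04 and 0.16.

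Per tumour, low values were found in 29.7%, 35.1%, 5.41% and 21.6% of receptors in tumours 1 to 4, against 18%, 27%, 16.7% and 14.6% of the 4966 other genes with 1 probe on the same chromosomes. High values were found in 10.8%, 13.5%, 16.2% and 5.41% of receptors, against 33.1%, 27.4%, 8.28% and 11.2% of those genes. Receptors were thus low more often and high less often than other genes in tumours 1, 2 and 4, and the reverse in tumour 3, as counts without a test. The receptor probes with matched probes, taken as differences from the matched mean, also spread less. Their SD was 0.21, 0.24, 0.16 and 0.16 across probes in tumours 1 to 4, against 0.29, 0.35, 0.21 and 0.22 in the matched probes. The probes of Olfr1164 and Olfr1080, which had too few matched probes, are left out of these SDs.

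**Figure D5:**
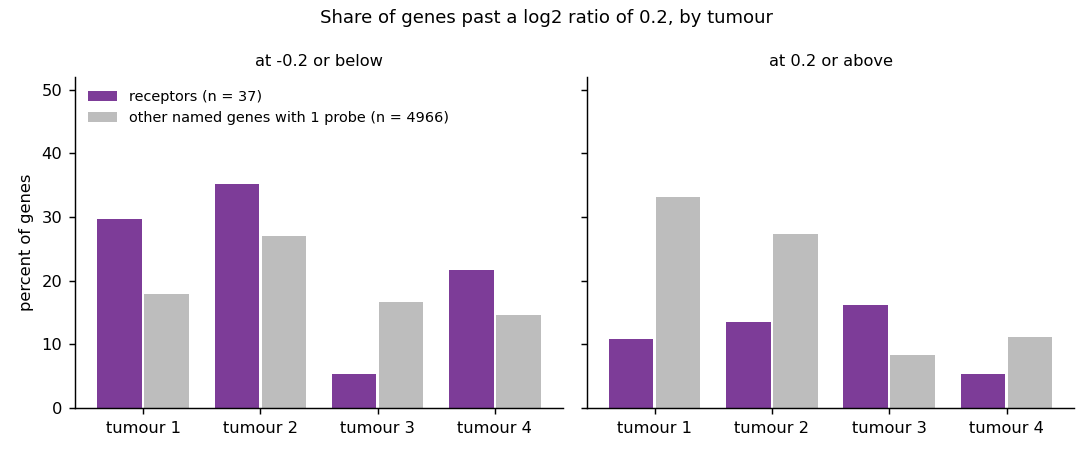
Percent of the 37 receptors and of 4966 other named genes with 1 probe on the same chromosomes that had a log2 ratio of -0.2 or below, left, or of 0.2 or above, right, in each tumour. The receptors have 29.7%, 35.1%, 5.41% and 21.6% low values in tumours 1 to 4, and tumour 3 is the only one where their bar is the shorter on the left and the taller on the right.

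The rule leaves out 10 receptors on other chromosomes. On chromosome 9, 5 receptor probes averaged -0.32 ± 0.05, -0.01 ± 0.09, -0.03 ± 0.04 and 0.02 ± 0.06 in tumours 1 to 4, against -0.31, -0.19, -0.11 and -0.02 for the other named probes of that chromosome. On chromosome 15, 3 receptor probes averaged 0.09, 0.03, -0.01 and -0.04, against 0.27, 0.29, 0.09 and 0.00094. In tumour 1 the chromosome 9 receptors matched their chromosome, and with 5 and 3 probes the other differences were not tested. The 1 receptor probe of chromosome 6 read -0.54, -0.32, -0.08 and -0.36, against -0.01, 0.09, 0.01 and -0.02. The 1 on X read 1.40, 0.56, 0.16 and 0.15, against 0.82, 0.19, 0.03 and -0.04. The chromosome 6 probe lay below its chromosome in every tumour, and the X probe above its own. Both were furthest apart in tumour 1, and each rests on a single probe. The 2 of chromosome 19 averaged -0.12, -0.06, 0.10 and -0.04, against 0.04, 0.11, -0.01 and 0.0028.

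Genes that work with the receptors in olfactory signal transduction, or in the choice of a receptor gene, were measured for 15 of 22 listed names, and 0 passed the limma test adjusted over all genes. At an unadjusted p under 0.05 there were 3 of 15, against 25.1% of all named genes. Rtp2, which helps carry receptors to the cell surface, stood at 0.49, 0.25, 0.31 and 0.27 by 1 probe (mean 0.33 ± 0.06, adjusted p = 0.106), and it was the only listed gene at 0.2 or above in all 4 tumours, against 0.963% of other autosomal genes with 1 probe. Stoml3, a stomatin-like protein of olfactory cilia, was lowest at -0.06, -0.25, -0.75 and -0.36 (mean -0.35 ± 0.11, adjusted p = 0.155). Pde4a, a cyclic AMP phosphodiesterase on chromosome 9, was at -0.21, -0.30, -0.35 and -0.11 (mean -0.24 ± 0.05, adjusted p = 0.116), on a chromosome that was itself low in tumours 1 to 3. Gnal, the G protein subunit coupled to the receptors, averaged 0.06 ± 0.06 over 15 probes. The median mean of the 15 genes was 0.02, against -3.4e-05 over all named genes, and 8 were above and 7 below 0. No trace amine receptor, the other family of receptors in the olfactory epithelium, had a named probe.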

How the data were processed

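Each array gave 1 ratio per spot for 1 tumour. The authors deposited log10 ratios of the red over the green channel, written by Agilent Feature Extraction (version 10.7.3.1 in the submitters' processing notes), background-subtracted and dye-scaled per the file headers. Intensity columns of both channels (mean and local background signal per spot, named so per the file headers) served for normexp correction. Log10 ratios were converted to log2. Control spots and outlier spots (93 to 126 per array) were dropped, repeated spots averaged and arrays centred on the autosomal median, with no loess. Positions are on mm9, and whether a probe lies in an exon was not determined.

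A gene was the mean of the probes carrying its name. Gene means, and receptor clusters with 1 Mb bins, were tested against 0 with limma 3.58.1 in R 4.3.3 (moderated intercept, Benjamini-Hochberg adjustment), the test behind every p given. This leaves out the reference's own spread, and precision is set by the 4 arrays. Of simulated 1-probe genes among 20795, limma called 2% of those changed by a log2 of 0.3, 24% at 0.6, 82% at 1 and 100% at 2. The simulated noise was independent between tumours, without probe effects shared by the arrays, and each change was the same in all 4 tumours.

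The members, lists and tests were chosen with earlier results of these data known. The rule for named genes took receptors past the test or past 0.2 in all tumours (none), the extremes of clusters with at least 20 receptors (none), receptors with at least 2 probes, those of known role, and genes of olfactory signal transduction. Any other gene was named with its values in view.

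Other settings tried were normexp (offset 50), centring on the mode or the chromosome, the series' value table, only spots well above background, GC correction by lowess, genes with at least 2 probes, medians over probes, thresholds of 0.1 and 0.3, other matching and cluster gaps, and each tumour left out. Added after the data were seen were a preset slide correlation of 0.5, normexp with GC correction, all probes of a cluster, each receptor counted once, and leaving out Olfr1164.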

Additional observations from a re-analysis of the deposited data

Results flagged for a closer look

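In 8 of 55 values examined (37 receptors, 15 signalling genes, 2 receptor clusters and 1 offset), 1 of the 4 tumours lay far from the other three relative to the range (Dixon's test; chance gives about 1 in 20). Among receptors, Olfr710 stood at 0.4603 in tumour 3, against -0.23 to -0.16 in the others. Olfr1006 was at 0.0871 in tumour 3, against -0.27 to -0.21, and Olfr1299 at 0.1757 in tumour 3, against -0.14 to -0.09. Olfr70 was at 0.2874 in tumour 4, against -0.03 to 0.0040, and Olfr1226 at -0.2366 in tumour 2, against -0.05 to -0.02. Of the signalling genes, Ric8b was at 0.0368 in tumour 3, against -0.10 to -0.08, and Ebf1 at -0.0499 in tumour 3, against 0.03 to 0.05. Slc24a4 was at 0.0275 in tumour 4, against -0.17 to -0.14. Tumour 3 was the one apart in 5 of the 8. Each of the 5 receptors was measured by 1 probe.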

How the results depend on the processing

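The count of receptors past limma's test was 0 and stayed 0 under 7 other settings. It was 8 with normexp, against 10.8% of all genes, and 5 with normexp and GC correction, for which the share over all genes is not given. With each tumour left out it was 0 to 1 (1 without tumour 3, Olfr65). Unadjusted p-values under 0.05 numbered 12. Receptors high in all tumours numbered 0; they were 2 with normexp (Olfr547 and Olfr1355), 3 at a threshold of 0.1, and 0 to 1 with each tumour left out. Receptors low in all tumours numbered 0; they were 4 with normexp (Olfr67, Olfr59, Olfr741 and Olfr1164), 1 with centring on the mode (Olfr67), 3 at a threshold of 0.1, and 0 to 5 with each tumour left out. For centring on the mode the share of other genes is not given. The causes were not tested. The mean offset of -0.03 from matched probes lay between -0.05 and -0.02 under the other settings and between -0.06 and -0.01 with each tumour left out. The count of clusters past the test was 0 in all 13 alternatives run. A random slide block was not run, since limma estimates no correlation from 4 arrays on 3 slides; with a preset correlation of 0.5 both counts stayed 0. No paired analysis was possible because all tumours form 1 group. With 1 probe for 35 of 37 receptors, changes under a log2 of about 0.6 would mostly be missed.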
